A study of Mus musculus with 7 samples.

Results

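The subject is the baseline transcriptome of the control subpallium of the mouse embryo at E12.5 (days of gestation), read from the 4 arrays whose titles name them as basal ganglia controls, out of 7 arrays in the series. The arrays were chosen by title alone, and the arrays labelled as conditional Otx2 knockouts were not used in any value given here. Each control array carried RNA from the ganglionic eminences and septum, dissected and snap frozen, of a female CD-1 embryo with the genotype given as Control. The labels do not say which alleles the controls carried, including the floxed Otx2 allele or the RxCre driver of the wider series. Control 1 came from litter 3, controls 2 and 3 from litter 2 and control 4 from litter 4, while controls 1 and 2 shared slide 1 and controls 3 and 4 shared slide 2.

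The subpallium is the ventral part of the telencephalon. Its medial, lateral and caudal ganglionic eminences (MGE, LGE and CGE) produce the GABAergic neurons of the striatum and pallidum and the interneurons that migrate into the cortex, and the septum lies at their rostral midline. Transcription factors divide the territory: the Dlx genes act across it, Nkx2-1 and then Lhx6 and Lhx8 in the MGE lineage, and Gsx2, Isl1 and Ebf1 in the LGE and striatal lineage. At midgestation the tissue mixes cycling radial progenitors with newly born neurons, and it borders the pallium, hypothalamus and choroid plexus and carries vessels, blood and meninges.

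Of 17127 genes with a named probe, 12448 (72.7%) were well above background on all 4 arrays, 1676 on some arrays, and 2625 (15.3%) on no array. The remaining 378 were not classed because a flagged spot left a gap. A gene counted on an array when the scanner software marked any of its probes well above the local background. The promoters of 13685 of these genes (RefSeq, GRCm38.p6, 250 bases before to 50 bases after the first listed start) differed with that class. The ratio of observed to expected CG dinucleotides had a median of 0.75 for genes on all 4 arrays, 0.23 for genes on some arrays and 0.19 for genes on no array. Detection on all 4 arrays rose in each step of that ratio, from 29.7% of 2450 genes at up to 0.2 to 92.8% of 4480 genes above 0.8.

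**Figure D1:**
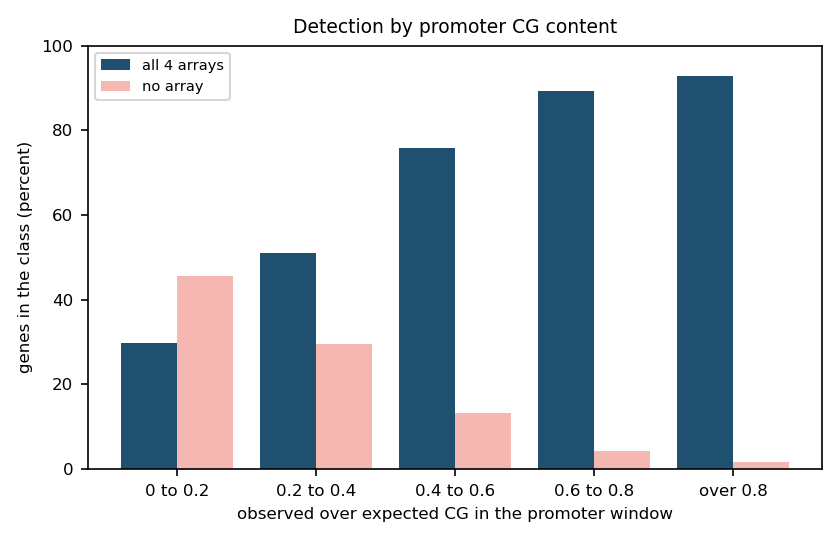
Share of genes well above background on all 4 control arrays (dark) or on no array (light), by the ratio of observed to expected CG dinucleotides in the RefSeq promoter window. The dark bars climb from 29.7% to 92.8% while the light bars fall from 45.6% to 1.70%.

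The promoters of 6 genes show what these classes look like in sequence; they were picked as examples after the values were seen. Each run is the 150 bases upstream of the start, 5′ to 3′ on the gene's strand, in GRCm38.p6, with every CG dinucleotide in capitals. Dlx2 (chr2:71546755-71546904, minus strand) and Isl1 (chr13:116309689-116309838, minus strand) are subpallial transcription factors and Hes5 (chr4:154960773-154960922, plus strand) is a Notch effector of progenitors, and all of these were on all 4 arrays. Hoxd13 (chr2:74668075-74668224, plus strand), a limb and posterior patterning gene, was on no array although its promoter is CG-rich. Alb (chr5:90460720-90460869, plus strand), serum albumin of the liver, and S100a8 (chr3:90668921-90669070, plus strand), a neutrophil protein, were on no array and have CG-poor promoters.
Dlx2: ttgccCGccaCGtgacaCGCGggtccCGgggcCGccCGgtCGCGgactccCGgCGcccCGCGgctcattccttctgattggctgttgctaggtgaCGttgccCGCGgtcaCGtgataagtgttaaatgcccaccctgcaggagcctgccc
Hes5: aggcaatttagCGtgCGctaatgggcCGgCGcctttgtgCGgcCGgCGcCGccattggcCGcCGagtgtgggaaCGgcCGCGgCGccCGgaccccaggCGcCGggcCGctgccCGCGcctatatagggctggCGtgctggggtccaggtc
Isl1: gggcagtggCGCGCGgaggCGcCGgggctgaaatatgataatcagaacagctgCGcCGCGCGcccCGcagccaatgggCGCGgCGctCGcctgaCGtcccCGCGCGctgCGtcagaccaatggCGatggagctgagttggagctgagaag
Hoxd13: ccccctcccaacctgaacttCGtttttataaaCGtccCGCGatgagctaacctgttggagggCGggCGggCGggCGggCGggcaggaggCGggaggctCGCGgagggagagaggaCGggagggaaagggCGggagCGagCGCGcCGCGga
Alb: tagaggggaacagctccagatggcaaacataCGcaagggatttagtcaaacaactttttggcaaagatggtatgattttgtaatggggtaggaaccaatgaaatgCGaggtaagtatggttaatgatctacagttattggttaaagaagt
S100a8: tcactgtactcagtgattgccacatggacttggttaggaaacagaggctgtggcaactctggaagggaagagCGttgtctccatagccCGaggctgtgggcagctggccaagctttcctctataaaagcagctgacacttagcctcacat

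The Dlx2, Hes5 and Isl1 stretches hold 17, 21 and 20 CG dinucleotides, the Hoxd13 stretch holds 19, and the Alb and S100a8 stretches hold 2 each. The letters TATAAA start 30 bases upstream of the start in the S100a8 stretch and 124 bases upstream in the Hoxd13 stretch. That motif, sought on both strands of the whole window, was in 12.2% of all 13685 promoters, in 7.88% of those of genes on all 4 arrays and in 26.3% of those of genes on no array. Transcription factor genes on no array had a median ratio of 0.57, between the 2 classes of all genes, and Hoxd13 had 0.90 over its whole window.

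The 4 arrays were alike in depth of signal. Of the 43379 spots that were not controls, 68.4% or more were well above background on every array, 13058 to 13696 named genes were above background per array, and no spot was saturated. Of 153 negative-control spots per array 4 or 5 (2.61% to 3.27%) were marked well above background. Control 1 was the array farthest from the mean for 36.0% of genes, and control 2 was the lowest of the arrays for most mesenchymal, vascular and macrophage markers, as described further on. As a check on the labelled sex, Xist, the RNA of X inactivation, was on all 4 arrays, and the Y-linked genes Ddx3y, Kdm5d, Uty and Eif2s3y were on none; Sry was on 1 array and Zfy2 on all 4, at percentile 25.4 of signal.

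Signal is given as log2 of the processed signal relative to the array's 75th percentile of it, with a floor at -7.61. The percentile of a gene is the percent of named genes with a lower signal on the same array, averaged over the arrays. Of the genes on all 4 arrays, 12439 could be ranked in this way, with a median percentile of 62.4 and a median SD between embryos of 0.15 log2. A rank describes the brightness of a probe and not the abundance of a transcript: probes of the same gene lay a median of 2.61 log2 apart. Actb, the cytoplasmic actin used everywhere as a reference, illustrates this, since its only named probe lay at percentile 37.8 while Gapdh, a glycolytic enzyme, was at percentile 99.9. As a level for dim signal, 87 of 886 olfactory receptor genes (9.82%), which encode odorant receptors of the nose, were on all 4 arrays, with a median percentile of 29.1 and a 95th percentile of 39.9. Of all named genes 10013 (58.5%) were on all 4 arrays and above that level, and the member counts of each list are to be set beside this share and the 72.7% on all 4 arrays and 15.3% on none.

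The brightest 12 genes were of the histone, ribosomal and tubulin kind with a single exception. They included the histone H2A genes H2ac20, H2ac1 and H2aj, the ribosomal protein genes Fau, Rps18, Rpl7a, Rpl41, Rps29 and Rps23, the beta-tubulin gene Tubb5, and Lrrc58, a leucine-rich repeat protein. When the probes of a gene were averaged instead, Lrrc58 was at percentile 72.4, H2aj at 96.4 and Rpl7a at 98.8. The others given stayed at 99.9 or above. Histone and ribosomal protein genes have near-identical copies and pseudogenes, so probes for them may read several transcripts together. H2ac20 had log2 values of 7.74, 8.07, 8.03 and 7.93 in controls 1 to 4. Of 93 named ribosomal protein genes 89 were on all 4 arrays, with a median percentile of 99.5, and all 42 subunits of NADH dehydrogenase were on all 4, with a median of 96.3. The brightest 10% of ranked genes held 64.4% to 66.8% of their summed signal.

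Of all named genes 72.7% were on all 4 arrays and 15.3% on none. Of 697 genes listed as transcription factors in 16 families, 646 had a named probe. Of these 438 (67.8%) were on all 4 arrays, 88 on some and 108 (16.7%) on none. Their median percentile was 52.8, below the 62.4 of all ranked genes, and 36 of them (5.57% of those named) reached the 90th percentile, against 9.49% of all named genes. The LIM homeobox family had the highest median percentile, 73.5, and the HOX clusters the lowest, 23.9. Of 36 HOX genes, which pattern the trunk and hindbrain, 21 were on no array and 3, Hoxa3, Hoxa6 and Hoxa7, were on all 4, at percentiles of 37.4, 21.8 and 23.9. Outside the HOX clusters, 106 of 164 homeobox and PAX genes (64.6%) were on all 4 arrays and 35 (21.3%) on none.

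**Figure D2:**
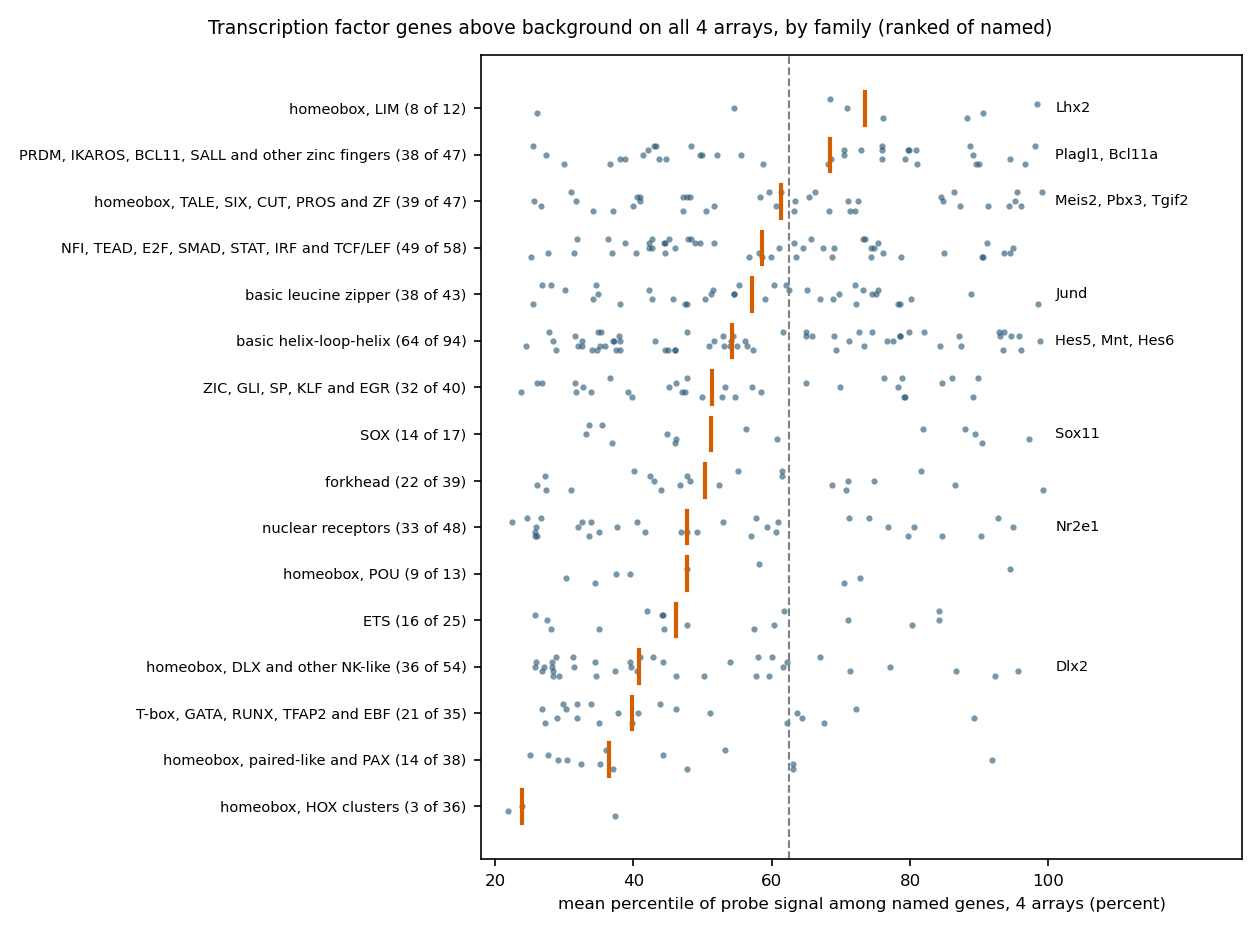
Mean percentile of probe signal on the 4 control arrays for each ranked transcription factor gene (points), by family, with the family median (orange bar) and the median of all ranked genes (dashed line, 62.4); bright genes given in the text are named at the right of their family. LIM homeobox genes have the highest family median, 73.5, and the 3 ranked HOX genes the lowest.

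Meis2, a TALE homeobox gene of the LGE and striatum, was among the brightest transcription factor genes, at percentile 99.0. Its log2 signal was 5.84, 6.10, 6.21 and 5.90 in controls 1 to 4. Hes5 was at percentile 98.8, with 5.50, 5.95, 6.01 and 5.96, so control 1 was low and the other arrays lay close together. Jund, a subunit of the AP-1 factor, was at percentile 98.5 and Lhx2, a LIM homeobox gene of the forebrain and eye, at 98.4. Plagl1, an imprinted zinc finger gene, was at percentile 98.0 and Sox11, a SOX gene of young neurons, at 97.1.

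Others above the 95th percentile were Bcl11a, a zinc finger gene of forebrain neurons, at 96.6 (3 arrays with a value), the homeobox gene Pbx3 at 96.1, Mnt, a partner of MAX, at 96.0, and Hes6, a Hes family member of differentiating neurons, at 95.7. Dlx2 had log2 signals of 4.10, 4.39, 4.62 and 4.46 and a percentile of 95.5. The repressor Tgif2 was at 95.1 and Nr2e1, an orphan nuclear receptor of neural stem cells, at 94.9. The AP-1 and immediate early genes Fos and Egr1 were dim by contrast, at percentiles 26.8 and 39.9.

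All 13 named genes of the pan-subpallial GABAergic list were on all 4 arrays, against 72.7% of all named genes. Their median percentile was 78.9, against 62.4 for all ranked genes. Slc32a1, the vesicular GABA transporter, was the brightest of the list at 97.1. The GABA-synthesising enzymes Gad2 and Gad1 were at 91.3 and 78.9; Gad2 had log2 signals of 3.49, 3.39, 3.55 and 3.43 and varied by 0.07 (SD, n = 4). Among the transcription factors of the list, Dlx1 was at 92.3, Dlx5 at 77.1 and Dlx6 at 44.2. Dlx5 varied most: its log2 signal was 0.88 in control 1 and 2.15, 1.83 and 2.12 in controls 2 to 4. The median SD of the list was 0.13 log2, near the 0.15 of all ranked genes.

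Of 24 named MGE genes 21 (87.5%) were on all 4 arrays, against 72.7% of all named genes, 1 on some and none on no array. Their median percentile was 63.4, near the 62.4 of all ranked genes. Nkx2-1, whose homeobox protein gives the MGE its identity, had log2 signals of 2.37, 2.96, 2.98 and 2.92 and a percentile of 86.7. Control 1 lay apart below the other arrays, which lay close together. Lhx6 and Lhx8, LIM homeobox genes downstream of Nkx2-1, were at 88.3 and 90.5, and Sst, the neuropeptide somatostatin, was the brightest at 93.8. Sox6, a SOX gene of MGE-derived interneurons, was at 90.5 (3 arrays with a value). Shh, the ventralising signal, was at 49.8, with log2 signals of -1.51, -1.08, -1.01 and -1.25. Nkx6-2, a progenitor gene of the dorsal MGE, was at 61.6 and again lowest in control 1, at -0.58 against 0.40, 0.36 and 0.64. Zic1 had an unflagged value on 1 array, so it has no rank here.

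Of 30 named LGE, CGE and striatal genes 29 (96.7%) were on all 4 arrays, against 72.7% of all named genes. Their median percentile was 58.3, below the 62.4 of all ranked genes. Besides Meis2, the brightest were Bcl11b, a zinc finger gene of striatal projection neurons, at 94.4, and Nr2f2, a nuclear receptor gene of the CGE, at 92.7. Nr2f2 had log2 signals of 3.67, 3.75, 3.78 and 3.74, an SD of 0.05. Gsx2, the progenitor homeobox gene of the LGE, was at 71.3 and brightest in control 3, at 1.65 against 0.93, 1.02 and 1.05. Isl1 was at 76.1, Foxp1, a forkhead gene of striatal neurons, at 71.1, Sp8, a zinc finger gene of the dorsal LGE, at 64.9, and Ebf1, a gene of maturing striatal neurons, at 64.4. The dopamine receptor gene Drd2 was on all 4 arrays but dim, at 26.6, with log2 signals from -6.74 to -4.19.

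Of 14 septal and rostral midline genes 11 (78.6%) were on all 4 arrays, near the 72.7% of all named genes, and 1, Six6, was on none. Fgf15 was at percentile 80.4, whereas Fgf8 and Fgf17, signals of the rostral patterning centre, were at 42.2 and 26.9. Fgf8 had log2 signals of -2.51, -2.91, -2.89 and -1.59, and Fgf17 of -5.38, -5.96, -6.62 and -4.46. Both were highest in control 4. Of the 11 genes on all 4 arrays, 9 were highest there. The median deviation of the list from the gene means was 0.33 log2 in control 4, against -0.13, -0.02 and -0.01 in controls 1 to 3. The tissue is a bulk dissection, so a smaller share of septal cells and less RNA per cell cannot be told apart here or for any other list.

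**Figure D3:**
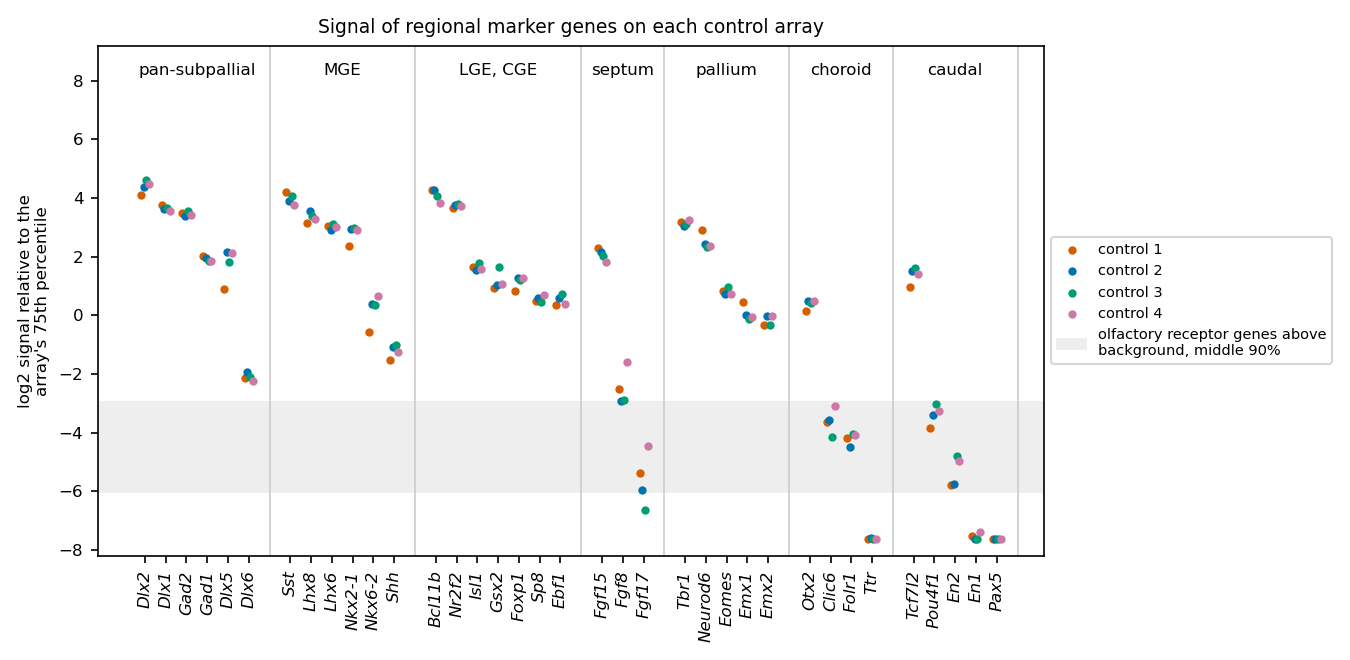
Log2 signal relative to the array's 75th percentile for regional marker genes, 1 point per control array; the grey band is the middle 90% of olfactory receptor genes that were above background on all 4 arrays. Pan-subpallial, MGE, LGE and pallial genes lie above the band on every array, and Ttr, En1 and Pax5 lie at or near the floor.

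Pallial genes were also above background. Of 22 genes of pallial progenitors and neurons 21 were on all 4 arrays, against 72.7% of all named genes, and the other, Neurog2, had a value on 1 array. The median percentile of the list was 67.6, against 62.4 for all ranked genes. Tbr1, a T-box gene of glutamatergic cortical neurons, was at 89.3, with log2 signals of 3.19, 3.04, 3.12 and 3.27. Neurod2 and Neurod6, helix-loop-helix genes of the same neurons, were at 93.6 and 84.4, and both were highest in control 1: Neurod6 was at 2.91 there and at 2.42, 2.32 and 2.38 in controls 2 to 4. Eomes, a gene of cortical intermediate progenitors, was at 67.6, and the pallial progenitor genes Emx1 and Emx2 were at 60.1 and 57.7. All 11 Cajal-Retzius genes were on all 4 arrays, led by Reln, the secreted signal of these early neurons, at 92.1. Their median percentile was 59.9. Lhx2 and Nfib are in the pallial list and are also used by other forebrain cells.

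Genes of the dorsal midline were dimmer. Of 17 cortical hem genes 10 were on all 4 arrays and 4 of them passed percentile 39.9, the level set by olfactory receptor genes (all named genes, 58.5%). Wnt2b and Lmx1a, defining genes of the hem, were on no array, and Wnt3a, a WNT ligand of the hem, was on 3. Of 17 choroid plexus genes 9 were on all 4 arrays and 3 passed that level, against 72.7% and 58.5% of all named genes. Ttr, transthyretin, the most abundant transcript of choroid epithelium, was on no array, with log2 signals of -7.61, -7.59, -7.61 and -7.61. Otx2, a homeobox gene of the choroid plexus that also acts in the ventral telencephalon, was on all 4 arrays at 63.1, with 0.13, 0.48, 0.42 and 0.50. Clic6, Folr1 and Kcne2, the other defining choroid genes detected on all 4, were at 36.3, 33.5 and 23.4.

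Markers of more caudal and ventral regions are given beside the 72.7% of all named genes on all 4 arrays, the 15.3% on none and the 58.5% above percentile 39.9. Of 23 hypothalamic and preoptic genes 14 were on all 4 arrays and 5 on none, among them Otp, a homeobox gene of neuroendocrine neurons, and Foxa1, a forkhead gene of the floor plate. Pomc, the precursor of melanocortins, was the brightest of this list at 66.8. Of 23 thalamic, midbrain and hindbrain genes 11 were on all 4 arrays, 9 on none and 3 above percentile 39.9. En1 and Pax5, of the midbrain and hindbrain, were on none, and Tcf7l2, a WNT effector of the thalamus, was at 73.4. Of 23 eye, lens and pituitary genes 8 were on all 4 and 11 on none. The melanin genes differed between embryos: Pmel was at -2.94 in control 3 and between -5.97 and -5.88 in the others, and Dct was at 0.27 and 0.12 in controls 1 and 4 and at -2.18 and -1.55 in controls 2 and 3.

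**Figure D4:**
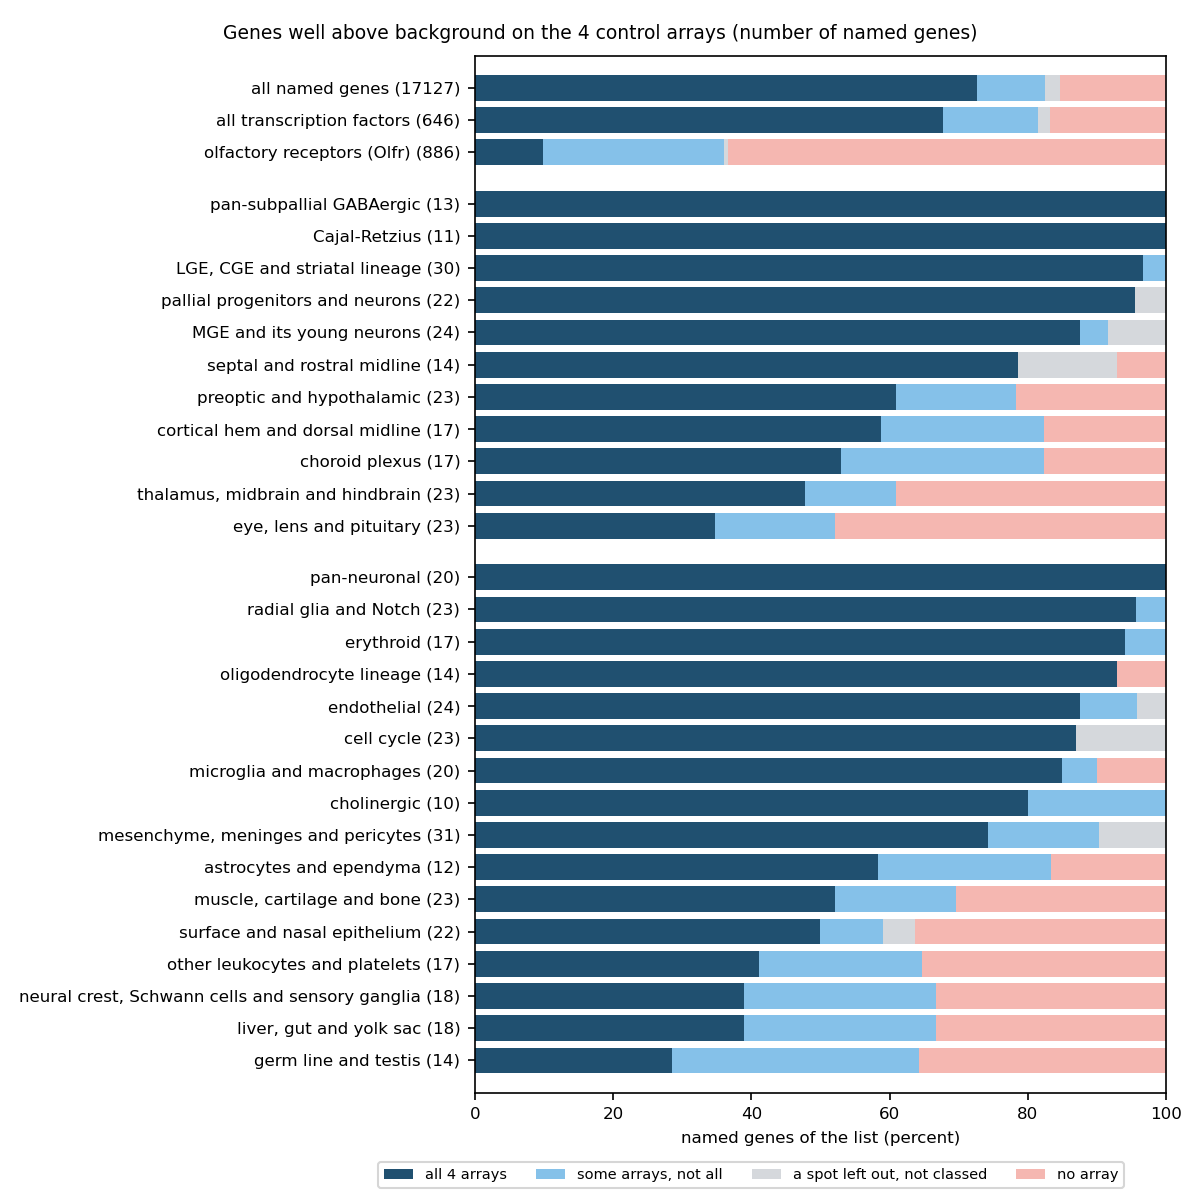
Percent of the named genes of each list that were well above background on all 4 control arrays, on some, on none, or not classed because a spot was left out; the number of named genes is in parentheses. Pan-subpallial, Cajal-Retzius and pan-neuronal lists are complete, while 9.82% of olfactory receptor genes are on all 4 arrays.

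Neuronal, cell cycle and radial glial lists were on all 4 arrays in full or nearly so, against 72.7% of all named genes. All 20 pan-neuronal genes were on all 4 arrays, with a median percentile of 95.1; Stmn1, a microtubule regulator, was at 99.9, Tubb3, neuronal tubulin, at 99.3, and Dcx, of migrating neurons, at 97.2. Of 23 cell cycle genes 20 were on all 4 arrays and the other 3 had a spot left out, with a median of 91.1; Pcna, Ccnd2 and Mki67, proliferation genes, were at 98.5, 98.4 and 97.2. Of 23 radial glia and Notch genes 22 were on all 4, with a median of 80.3; Fabp7, Nes and Vim, the classical radial glial genes, were at 99.2, 98.5 and 98.2. Of 12 astrocyte and ependyma genes 7 were on all 4 arrays and 2 on none, and Gfap, of mature astrocytes, was on 1 array. Of 14 oligodendrocyte genes 13 were on all 4 arrays: Olig2, a progenitor gene, was at 76.7 and Pdgfra, of oligodendrocyte precursors, at 49.8, while Mog, a late myelin gene, was on none. When the probes of a gene were averaged, Olig2 was at 48.1 and Pdgfra at 34.7, the latter below the olfactory receptor level of 39.9. Chat, the cholinergic enzyme, was on 1 array.

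For signals and their receptors, 24 of 36 patterning ligands and antagonists and 27 of 29 receptors and response genes were on all 4 arrays, against 72.7% of all named genes; the ligand count is near that share. Sfrp1, a secreted WNT antagonist, was at 97.3, and Wnt7a and Wnt7b were at 72.7 and 72.1. In the hedgehog pathway, Smo, the signal transducer, was at 95.7, and Ptch1, the receptor and a target gene, at 39.1. Gli3, a hedgehog effector, was at 26.1 by the probe with enough unflagged values and at 91.3 with the values the authors deposited. Of 45 ion channel and transmitter receptor genes 38 were on all 4, with a median of 42.6.

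Blood and vessels were present in every dissection. Of 17 erythroid genes 16 were on all 4 arrays, and the embryonic and adult globins Hbb-y, Hba-a1 and Hba-x were at 99.8, 99.8 and 99.0. Hbb-y had log2 signals of 7.22, 6.89, 7.38 and 7.15. Globin genes share sequence, so their probes may read each other's transcripts. The log2 signal of Hbb-bh1, an embryonic beta-globin, was 4.38, 4.29, 5.28 and 4.57, highest in control 3. Of 24 endothelial genes 21 were on all 4; Mfsd2a, a lipid transporter of the blood-brain barrier, was at 81.5, and Cldn5, of tight junctions, was at 81.2 with 2.41, 1.53, 2.31 and 2.38. Of 20 microglia and macrophage genes 17 were on all 4, with a median percentile of 46.6; Aif1 and Csf1r were at 51.3 and 51.0, Spi1 was on 1 array and Itgam on none. Of 17 genes of other leukocytes and platelets 7 were on all 4 and 1 passed percentile 39.9, against 72.7% and 58.5% of all named genes.

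Mesenchymal, meningeal and pericyte genes were uneven between embryos. Their share on all 4 arrays was near the 72.7% of all named genes. Of 31 named members 23 (74.2%) were on all 4 arrays, 5 on some, none on no array and 3 not classed. Their median SD was 0.65 log2, against 0.15 for all ranked genes; the 10 ranked cortical hem genes and 7 ranked genes of other leukocytes were as uneven, both at 0.67. Col3a1, a fibrillar collagen, had log2 signals of 3.01, -1.05, 2.63 and 3.26, a range of 19.9-fold, and Col1a2, another, had 2.43, -1.02, 2.13 and 2.71. Lum, a proteoglycan of connective tissue, was at 0.31, 0.18 and 0.80 in controls 1, 3 and 4 and not well above background in control 2, where it lay at the floor of -7.61. In each of these control 2 was low and the other arrays lay close together.

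Control 2 was the lowest of the arrays for 19 of the 23 ranked members, with a median deviation of -0.93 log2 from the gene means. It was also lowest for 18 of 21 endothelial genes (median deviation -0.47), 15 of 17 microglia and macrophage genes (-0.42) and 13 of 15 erythroid genes (-0.34), against 2736 of 12228 ranked genes in all. The meningeal and border macrophage genes moved the same way: Aldh1a2, a retinoic acid enzyme of meninges, had -2.90, -6.59, -3.25 and -3.01, and Mrc1, the mannose receptor of such macrophages, had -3.16, -6.16, -3.19 and -2.54. The summed signal of the 23 members was 18.7 in control 2 and 38.1 to 44.6 in the others, in units of the 75th percentile. Without control 2, the median SD fell to 0.22 for the mesenchymal list, 0.13 for the endothelial and 0.18 for the microglial list, and 28 of 31 mesenchymal genes were on every remaining array. In the erythroid list control 3 stood apart as well, with a median deviation of 0.39 and 14 of 15 genes highest there. The median SD of that list was 0.42, and 0.28 without control 2 or 0.30 without control 3. The cortical hem list, whose BMP and MSX genes meninges also express, had a median deviation of -0.43 in control 2, with 6 of 10 genes lowest there; the part of mesenchyme in that was not tested. Control 2 also had the lowest median deviation of the 4 arrays in the eye, lens and pituitary list (-0.58, 7 genes). The same held for choroid plexus (-0.28, 9 genes) and for other leukocytes and platelets (-0.47, 7 genes). In the leukocyte list control 1 was low too, at -0.34, with controls 3 and 4 at 0.37 and 0.62. Acta2, a smooth muscle actin in the mesenchymal list, did not share the pattern, with 3.22, 3.06, 3.02 and 2.82.

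The subpallial lists did not share that pattern either. The median deviation of control 2 was 0.03 log2 for the MGE list, -0.02 for the LGE list and 0.02 for the pan-subpallial list. Controls 2 and 3 came from the same litter and controls 1 and 2 from the same slide. The median deviation of the mesenchymal list was 0.30, 0.16 and 0.42 log2 in controls 1, 3 and 4. Whether litter, slide, dissection or another step set the low values of control 2 was not tested.

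**Figure D5:**
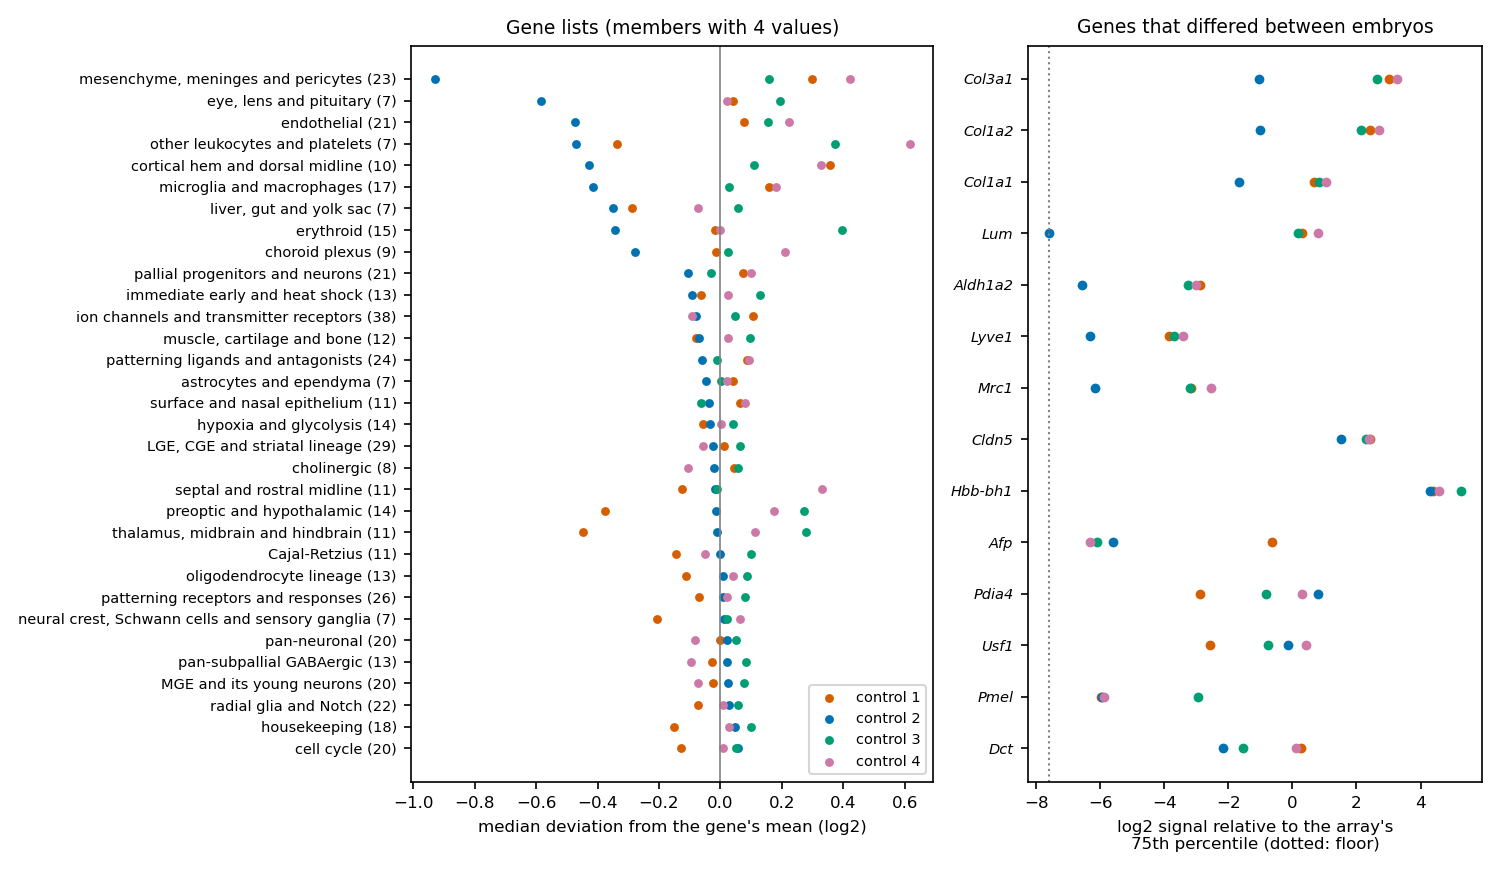
Left, median deviation of each gene list on each control array from its genes' means, in log2 (number of genes with 4 values in parentheses); right, log2 signal of single genes that differed between embryos, 1 point per array. Control 2 is lowest for the mesenchymal, endothelial and microglial lists, among others, and control 1 stands alone for Afp.

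Markers of tissues outside the head mesenchyme are given beside the 72.7% of all named genes on all 4 arrays and the 58.5% above percentile 39.9. Of 22 surface and nasal epithelium genes 11 were on all 4 arrays and 1, Sfn, passed percentile 39.9, at 93.7; Trp63 and Cdh1, defining epithelial genes, were on none. Of 18 neural crest and sensory ganglion genes 7 were on all 4 and 2 passed, Ntrk2 and Ntrk3, neurotrophin receptors that central neurons also express. Of 23 muscle, cartilage and bone genes 12 were on all 4 and 4 passed. Myog, of muscle, was on none, and Col2a1, of cartilage and early neuroepithelium, was at 70.1. Of 14 germ line genes 4 were on all 4 arrays. None of the 18 liver, gut and yolk sac genes passed the level of 39.9, and Alb was on no array. Afp, alpha-fetoprotein of the yolk sac and liver, was nevertheless at -0.65 in control 1 and at -5.61, -6.09 and -6.31 in controls 2 to 4, the largest SD of all ranked genes (2.69) and a range of 50.8-fold. Apoa1, another gene of those tissues, was on no array.

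Most genes varied little between embryos. Of 12228 genes with a value on every array 105 (0.859%) had an SD above 1 (23 with background-corrected, quantile-normalized values and 40 with the values the authors deposited), and their arrays were spread over 22 orders from low to high. Control 2 was the lowest in 48 of the 105 and control 1 in 40, against 2736 and 4484 of the 12228. The count for control 1 was thus near its share of all ranked genes. The spread was larger for dim genes, with a median SD of 0.24 between the 25th and 50th percentiles and 0.11 above the 90th. Among the 15 most variable genes from the 50th percentile up were Cldn11, Serpinf1, Islr and Itga11, connective tissue or meningeal genes that were lowest in control 2. Cldn11, a tight junction claudin, had -0.04, -3.99, -0.73 and 0.15.

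Another set was lowest in control 1. Pdia4, a chaperone of the endoplasmic reticulum, had -2.89, 0.79, -0.84 and 0.29, and Sdf2l1, which acts in the same compartment, had -2.11, 0.55, -0.62 and 0.30. Psmb2, a proteasome subunit, had -0.96, 1.80, 0.96 and 1.61, and Syt10, a synaptotagmin, had 0.17, 3.33, 2.08 and 2.90. In all of these, and in Rsl24d1 and the Actb probe, the arrays ran from control 1 through 3 and 4 to control 2. That order was seen in 9 of the 105 genes (8.57%) and in 5.90% of all ranked genes. The most frequent order among the 105, from control 2 through 3 and 1 to control 4, had 17.1% of them and 2.26% of all ranked genes. Usf1, a helix-loop-helix factor, was also lowest in control 1, at -2.56 against -0.14, -0.77 and 0.43. Over whole lists control 1 was the lowest array for 62 of 105 homeobox and PAX genes outside the HOX clusters and for 68 of 89 ribosomal protein genes, against 4484 of 12228 ranked genes.

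The slide was the batch that could be tested, with 2 control arrays on each. Fitted with limma and adjusted by Benjamini-Hochberg, 0 of 13094 genes (0%) were called different between slides at an adjusted p under 0.05. That count does not show that no gene differed, since each slide held 2 arrays. An unadjusted p under 0.05 was found for 1063 genes (8.12%), of which 918 were higher on slide 2. With arrays centred on the median instead, 593 of 796 were higher there. Dim genes took part in that lean: the 87 olfactory receptor genes on all 4 arrays had median deviations of -0.35 and -0.30 in controls 1 and 2 and 0.38 and 0.32 in controls 3 and 4. The median absolute log2 difference was 0.13 between controls 3 and 4, which shared slide 2, 0.15 between the littermates 2 and 3, which did not share a slide, and 0.18 between controls 1 and 2, which shared slide 1. Pairs that shared neither were at 0.15 (controls 2 and 4) and 0.19 (controls 1 and 3, and 1 and 4), so sharing a litter or slide did not go with a smaller difference in every pair.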

How the data were processed

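From each control embryo, total RNA went through linear amplification with Cy3 and onto a 1-colour Agilent 4x44K whole mouse genome array, per the labels' protocols. The deposited intensity values are background-subtracted spot signals from Agilent Feature Extraction 10.7.3.1, per the file headers; the submitters' processing notes name version 10.5. The deposited table of log2 values by the authors served as an alternative. Each array's signal was divided by its 75th percentile, floored and put on the log2 scale. Control spots and outlier spots were left out, replicate spots were averaged, and a gene took its brightest probe with values on at least 3 arrays. Of 41174 probes 24844 had 1 gene symbol, 0 had several and 16330 had none, so the latter were left out. Python 3.11.15 and limma 3.58.1 were used, and the slide test was tested on simulated data in which all genes had the same spread, a check of the code and not of its power here.

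The arrays and gene lists were chosen with earlier results of these data known. Named genes were the defining members of each list, the 3 brightest, up to 3 on no array and the most variable member of each list, the 12 brightest genes, the 15 brightest transcription factor genes and the 15 most variable genes from the 50th percentile; Hoxd13 was chosen after its value was seen. The labels name separate embryos, and 4 arrays limit the precision of every SD. Some genes that the rule chose are not reported here.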

Additional observations from a re-analysis of the deposited data

Results flagged for a closer look

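Among 187 groups of 4 values (single genes, list medians and quality measures of the arrays), 13 had 1 array far from the other 3, by a gap past Dixon's critical value at the 95% level. Chance marks about 1 in 20 such groups, but that rate does not describe genes chosen as the most variable, which are among these. Control 2 was the far array for Col3a1 (-1.05, others 2.63 to 3.26), Col1a2 (-1.02, others 2.13 to 2.71), Serpinf1 (-3.52, others -0.61 to -0.35), Islr (-2.77, others -0.62 to -0.59), Aldh1a2 (-6.59, others -3.25 to -2.90) and Cldn5 (1.53, others 2.31 to 2.41), all in log2 and all low. These are genes of mesenchyme, meninges and vessels.

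Control 1 was the far array for Nkx2-1 (2.37, others 2.92 to 2.98) and Hes5 (5.50, others 5.95 to 6.01), where it was low. It was high for Neurod6 (2.91, others 2.32 to 2.42), Neurod2 (4.17, others 3.81 to 3.86) and Afp (-0.65, others -6.31 to -5.61). Over the LIM homeobox list its median deviation was -0.20, against 0.07 to 0.09 for the others. Control 3 was the far array for Pmel, a melanosome gene, at -2.94 against -5.97 to -5.88.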

How the results depend on the processing

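The number of genes on no array was 2625 and fell to 1514 with the scanner's positive-and-significant flag; leaving out 1 control gave 2767 to 2913. The number on all arrays ranged from 12511 to 12765 when 1 control was left out. The slide test called 0 genes, 2 (Gm5148 and Ltf) with no filter on dim probes and 3 (Epm2aip1, Erbin and Rubcn) when probes were averaged per gene, and 0 without each control in turn. The count of genes with an SD above 1 was 105, and became 23 with normexp and quantile normalization, 40 with the authors' deposited values, 233 when probes were averaged per gene, 315 for genes above background on at least 2 arrays and 499 with no filter; leaving out 1 control gave 114 to 138. The cause of these shifts was not tested, except that the last 2 admit dim genes. The count of transcription factor genes from the 90th percentile was 36, and 34 to 35 without 1 control. It was 34 when probes were averaged per gene, with 22 of the 36 shared. Among those that then fell below the 90th percentile were Sox6 (57.3), Hes6 (81.2), Sox11 (82.7) and Plagl1 (89.5). Averaging probes per gene moved 16 of 118 named genes by over 10 percentile points, and the deposited values moved 1. The largest shift with averaging was -38.4 points, in Acta2. Sfn fell from 93.7 to 56.3, Smo from 95.7 to 64.3 and Olig2 from 76.7 to 48.1. Gli3 rose from 26.1 to 43.1, and the others moved by over 10 points all fell. Some ranks given above thus depend strongly on the choice of probe. The low median of mesenchymal genes in control 2 lay between -0.94 and -0.73 log2 under every setting tried. Normexp used median spot signals and was chosen after seeing the data, as were the counts per list. No paired analysis was possible because the arrays form 1 group. Signal near background limits the dim genes.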
